A study of Mus musculus with 2 samples.

Results

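The liver makes most of the proteins that clot blood and most of the complement proteins that attack microbes, and hepatocytes secrete them into the plasma. The genes described here encode 38 of these secreted proteins, of 43280 gene symbols counted. They were taken from a fixed list of coagulation, fibrinolysis and complement genes that left out serpins and C1q, and each was found by its symbol in both libraries. The libraries came from small hepatocytes (SHs), described by the labels as intrinsic hepatocyte progenitors, and from mature hepatocytes (MHs). Both fractions were isolated by collagenase perfusion from the same healthy C57BL6 mice, aged 20 weeks by the labels, whereas the methods give a younger age for the mice of the study. MHs were pelleted by slow centrifugation and cleared of dead cells on Percoll, and no sort is described for them. SHs came from the supernatant, passed a Percoll gradient too and were sorted by FACS as cells that were positive for ICAM-1 and negative for CD31, CD45 and EpCAM. The methods name 3 mice and do not say whether their RNA was pooled. Each group was 1 library, so the difference between cell fractions cannot be told apart from that between preparations, and no test between groups was possible.

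Most of these proteins are zymogens, that is, inactive precursors of proteases that activate each other in a chain. In clotting, the contact (intrinsic) and tissue factor (extrinsic) pathways meet at factor X, which makes thrombin, and thrombin turns fibrinogen into fibrin. Plasmin, made from plasminogen, dissolves fibrin. In complement, the classical, lectin and alternative pathways meet at C3, and the terminal components then build a pore in the target membrane. Several of the genes, fibrinogen and C3 among them, are known as acute-phase genes that respond to interleukin-6.

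The promoters of 5 genes, chosen for their ratios, are shown, and whether promoter sequence bears on the ratios was not tested. Fga, Fgb and Fgg encode the chains of fibrinogen, lie side by side on chromosome 3 and had nearly the same ratio between the libraries. C3 had the highest ratio of the 38 genes, and C6 the lowest among those with at least 1000 reads. The sequences are from RefSeq on GRCm38.p6 (mm10), with 250 bases before and 50 bases after the annotated start, written 5′ to 3′. Their positions are chr3:83025903-83026202 (plus strand) for Fga, chr3:83049814-83050113 (minus strand) for Fgb, chr3:83007474-83007773 (plus strand) for Fgg, chr17:57228087-57228386 (minus strand) for C3 and chr15:4726960-4727259 (plus strand) for C6. Capitals mark the letters CTGGGA, the core of an interleukin-6 response element, on either strand.
Fga: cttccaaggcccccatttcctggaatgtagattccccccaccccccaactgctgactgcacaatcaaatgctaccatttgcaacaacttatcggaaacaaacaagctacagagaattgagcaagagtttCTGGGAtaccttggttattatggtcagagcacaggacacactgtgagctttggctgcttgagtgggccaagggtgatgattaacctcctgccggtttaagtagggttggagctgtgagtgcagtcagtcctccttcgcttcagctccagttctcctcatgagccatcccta
Fgb: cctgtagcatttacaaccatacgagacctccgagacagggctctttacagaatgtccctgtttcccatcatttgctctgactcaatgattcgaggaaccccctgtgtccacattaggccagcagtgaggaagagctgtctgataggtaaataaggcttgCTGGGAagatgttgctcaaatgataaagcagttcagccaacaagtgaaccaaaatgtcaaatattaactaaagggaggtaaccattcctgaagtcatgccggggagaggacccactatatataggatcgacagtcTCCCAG
Fgg: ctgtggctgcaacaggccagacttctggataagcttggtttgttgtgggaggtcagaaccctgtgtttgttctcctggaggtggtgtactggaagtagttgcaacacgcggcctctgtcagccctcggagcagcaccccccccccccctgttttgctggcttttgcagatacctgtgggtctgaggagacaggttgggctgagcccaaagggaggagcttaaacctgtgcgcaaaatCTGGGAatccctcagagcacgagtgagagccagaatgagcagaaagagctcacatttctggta
C3: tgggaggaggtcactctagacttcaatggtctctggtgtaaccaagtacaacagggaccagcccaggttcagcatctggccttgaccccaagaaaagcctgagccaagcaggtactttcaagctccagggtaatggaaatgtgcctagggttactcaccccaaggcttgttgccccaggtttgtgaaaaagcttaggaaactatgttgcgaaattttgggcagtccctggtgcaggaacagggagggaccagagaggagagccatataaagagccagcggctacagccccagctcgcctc
C6: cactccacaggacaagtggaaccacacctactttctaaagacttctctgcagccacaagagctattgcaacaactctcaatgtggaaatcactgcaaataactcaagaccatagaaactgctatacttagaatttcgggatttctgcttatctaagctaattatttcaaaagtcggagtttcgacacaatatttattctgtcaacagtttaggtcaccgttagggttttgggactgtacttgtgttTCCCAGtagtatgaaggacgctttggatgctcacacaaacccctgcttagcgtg
The CTGGGA letters stood once in the promoters of Fga, Fgg and C6, and at 2 places in that of Fgb. The letters were not found in this window of C3. A promoter was found for 30 of the 38 genes, and Kng1, Plg, Proc, C2, C4b, Cfb, Cfi and Masp1 had none in the table. Of these 30 genes, 17 had CTGGGA in at least 1 promoter. Of all 32851 promoters of this length, 31.8% held it, and counted by gene, as for the 38, 34.8% of 27025 genes did. A match is a description of the sequence, not a binding site.

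The counts deposited for MHs summed to 16979136 reads and those for SHs to 42356444, and the counting error of a gene was therefore set mainly by the MH library. Levels are given in RPM, the reads of a gene for every 1000000 counted reads. For the log2 ratio of SHs over MHs, 0.5 reads were first added to each count, and each ratio is given with a 95% Clopper-Pearson interval that covers counting error only. A gene was called lower or higher when it differed by at least 1.2-fold and its interval lay wholly on that side of 0. As a check of the labels, all 10 hepatocyte markers were abundant in both libraries, and Alb, which encodes albumin, had 945837 reads for MHs and 2577617 for SHs. Markers of other liver cells moved with the libraries. All 10 endothelial markers were called lower in SHs, where 11% of all genes with at least 10 reads were. Their summed level was 80.9 RPM for MHs and 4.49 for SHs, and Lyve1 had 0 reads in SHs. The 10 macrophage markers summed to 18.3 RPM for MHs and 1.04 for SHs, with Marco at 0 in SHs, and the 10 stellate cell markers to 20.7 and 2.34, with Lum at 0 in SHs. The 8 cholangiocyte markers summed to 21.4 RPM for MHs and 24.4 for SHs, and the defining Krt19 and Krt7 had 1 read each in both. The 6 platelet and megakaryocyte markers summed to 1.649 RPM for MHs and 1.299 for SHs. Of these, Itga2b had 20 and 51 reads, Itgb3 had 7 and 3 and was called lower, Ppbp and Gp1ba had 1 read in 1 library, and Gp9 and Pf4 had 0 in both. Within hepatocytes, all 10 ZONE3 markers were called lower and 8 of 10 ZONE1 markers higher in SHs, with medians of -1.93 and 0.47. Among all genes with at least 10 reads, 11% were called lower and 9.57% higher. The part of these shifts in the values below was not tested. The 38 genes themselves ran from 14.7 to 7089 RPM in MHs.

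The 38 genes together took almost the same share of the RNA in both fractions, 4.038% of all reads for MHs and 4.004% for SHs. The summed ratio was -0.01 on the log2 scale (-0.02 to -0.01), and under 2 of 5 other scalings it was above 0, at 0.01 and 0.02. Single genes differed little, but mostly in 1 direction. The ratio was under 0 for 33 of the 38 genes, and for 48.0% of all 15521 genes with at least 10 reads. Their median was -0.09, beside 0.02 over those 15521 genes and 0.04 over the 5055 genes with at least 1000 reads. Each of the 38 genes had at least 249 reads in either library, so none was lost to a filter. Under other ways to scale the libraries, which shift all genes alike by up to 0.03, between 29 and 33 of the genes stayed under 0. F2, F10, C4b and Proc lay closest under 0 and were the ones that changed sides.

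Of the 38 genes, 6 were called lower in SHs, where 11% of all genes with at least 10 reads were called lower. These were Klkb1, C6, Pros1, F5, C4bp and Cpb2. Among genes with at least 1000 reads, 5 of 37 members were called lower, where 7.99% of all such genes were. No member was called higher, where 9.57% of all genes with at least 10 reads and 10.1% of those with at least 1000 reads were, and C3 missed the call at 1.19-fold. The genes nearest to the threshold on the lower side were Cpb2, at 1.21-fold, just inside it, and F11 and Cfb, both at 1.19-fold, just outside. At 1.5-fold, 1 member, Klkb1, was called lower, where 6.20% of all genes were, and 0 were called higher, where 3.50% were. At 2-fold, 0 members were called in either direction, where 4.46% of all genes were called lower and 2.00% higher. By the interval alone, 27 members were lower, where 15.5% of all genes were, and 3 were higher, where 16.8% were. Such intervals are narrow for abundant genes. Among the 696 genes with at least 10000 reads, 19 of 27 members had an interval under 0, where 43.0% of all such genes did, 2 had an interval above 0, where 41.7% did, and 24 of 27 had a ratio under 0, where 50.4% did.

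**Figure D1:**
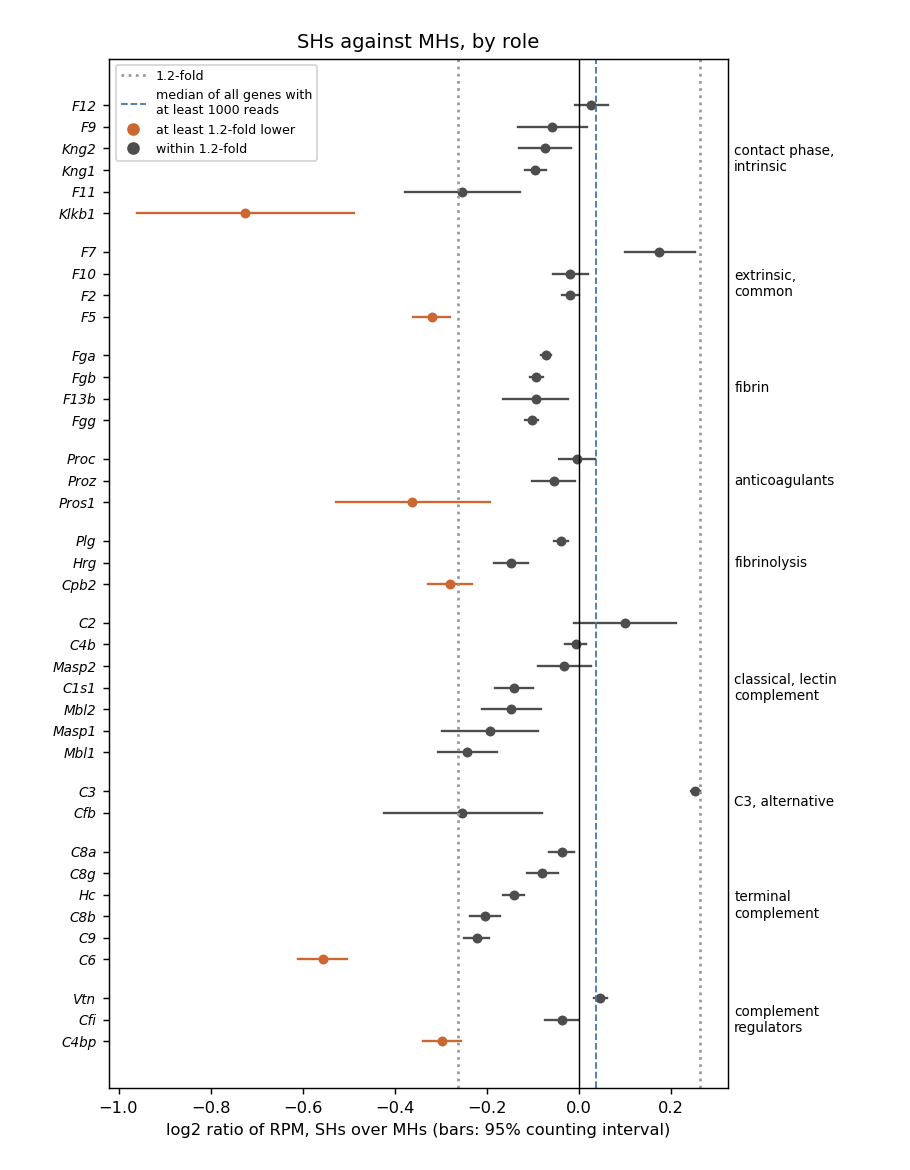
Log2 ratio of SHs over MHs for each of the 38 genes (x axis), grouped by role (right), with 1 library per group. Points are ratios of RPM, bars are 95% counting intervals, dotted lines mark 1.2-fold and the dashed line is the median of all genes with at least 1000 reads (0.04), and the 6 genes called lower stand left of the dotted line at the left.

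**Figure D2:**
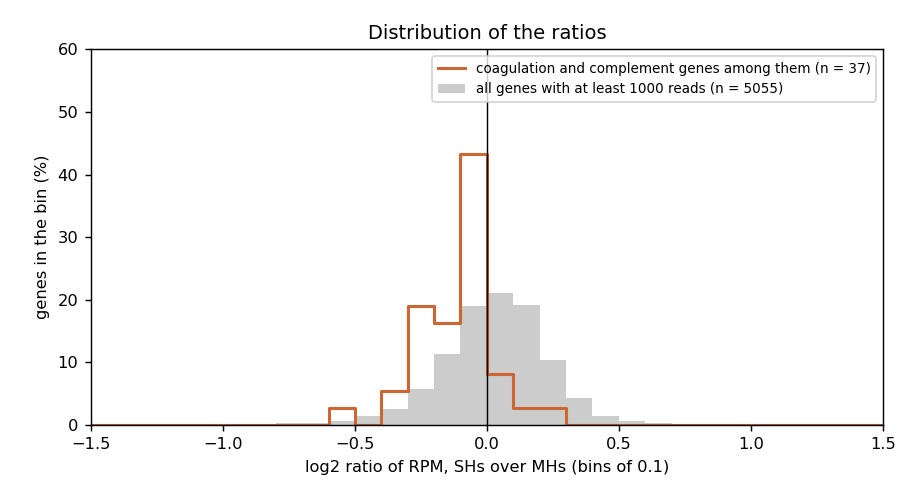
Share of genes (y axis, percent) in each 0.1-wide bin of the log2 ratio of SHs over MHs (x axis), for all 5055 genes with at least 1000 reads (grey) and the 37 coagulation and complement genes among them (line). The line peaks just under 0, whereas the grey bars peak just above 0, and 15 genes beyond 1.5 on either side are not drawn.

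The genes of the contact phase and the intrinsic pathway mostly differed little, apart from prekallikrein. F12, which encodes factor XII, the protease that starts contact activation, had 8915 reads for MHs and 22659 for SHs, or 525.1 and 535.0 RPM, and the interval of its ratio included 0 (-0.01 to 0.06). Klkb1 encodes plasma prekallikrein, which factor XII activates (chromosome 8, 45266689 to 45294859 of mm10, minus strand). It had 249 reads for MHs and 376 for SHs, the library with more reads, or 14.7 and 8.88 RPM. Its log2 ratio of -0.73 (-0.96 to -0.49) was the lowest of the 38 genes, 1.65-fold lower in SHs, and Klkb1 was also the gene with the fewest reads. Klkb1 shares exon positions with Gm45753, a gene on the same strand that had no row of its own. How reads at these positions were assigned is not given in the sources used here, so the level and ratio of Klkb1 are uncertain.

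Kng1 and Kng2 encode kininogens, the cofactors from which kallikrein frees bradykinin. Kng1 had 21978 and 51349 reads, a log2 ratio of -0.09 (-0.12 to -0.07), and Kng2 had 3605 and 8544, a ratio of -0.07 (-0.13 to -0.02). These paralogs can share reads, and their sum had a ratio of -0.09 (-0.11 to -0.07). F11, which encodes factor XI, had 45.2 RPM for MHs and 37.9 for SHs, a ratio of -0.25 (-0.38 to -0.13). Its ratio lay 0.47 above that of its neighbour Klkb1, which lies 4.66 kb away (95% Wald interval 0.21 to 0.73). F9, which encodes factor IX, had 119 RPM for MHs and 114 for SHs, and its interval included 0.

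In the extrinsic and common pathway, F5 was called lower, and the protease genes were not called. F7, which encodes factor VII, the partner of tissue factor, had 1908 reads for MHs and 5375 for SHs, or 112 and 127 RPM. Its ratio of 0.18 (0.10 to 0.25) was the second highest of the 38 genes. F10, which encodes factor X, lies 1.499 kb from F7 and had 8095 and 19943 reads, 477 and 471 RPM, with an interval that included 0. The ratio of F7 lay 0.19 above that of F10 (0.11 to 0.28). F5 encodes factor V, the cofactor of factor X (chromosome 1, 164151838 to 164220277). It fell from 449.7 to 360.3 RPM, a ratio of -0.32 (-0.36 to -0.28), which lay 0.30 below that of F10. F2, which encodes prothrombin, had 31234 and 76928 reads, 1840 and 1816 RPM, and its interval, -0.04 to 0.00, reached 0.

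The fibrinogen genes held the largest block of reads, and they moved together by a few percent. Fga had 93812 reads for MHs and 222848 for SHs, or 5525 and 5261 RPM. Fgb had 64055 and 149935 reads, or 3773 and 3540 RPM, and Fgg had 58583 and 136153, or 3450 and 3214 RPM. Their ratios were -0.07, -0.09 and -0.10, all with intervals under 0. The ratio of Fga lay 0.03 above that of Fgg (0.01 to 0.05), and Fgb and Fgg could not be told apart at this depth (-0.01 to 0.03). Together they took 31.6% of the reads of the 38 genes for MHs and 30.0% for SHs. Per kilobase of annotated exon, Fga had 1836 RPKM for MHs and 1748 for SHs, Fgg had 1648 and 1536, and Fgb had 990.2 and 929.1. The share of Fga in that sum was 41.0% for MHs and 41.5% for SHs, that of Fgb 22.1% in both. The exon length is the union of all annotated exons, so these shares depend on the annotation. F13b, which encodes the carrier subunit of factor XIII that crosslinks fibrin, had 138 and 129 RPM, a ratio of -0.09 (-0.16 to -0.02).

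Among the anticoagulants, Pros1 was called lower and the others differed by a few percent. Proc, which encodes protein C, the vitamin K-dependent protease that inactivates factor V, had 7713 reads for MHs and 19187 for SHs, 454.3 and 453.0 RPM. Pros1 encodes protein S, the cofactor of protein C (chromosome 16, 62854307 to 62929346). It had 444 and 862 reads, or 26.1 and 20.4 RPM, a ratio of -0.36 (-0.53 to -0.19). The ratio of Proc lay 0.36 above that of Pros1 (0.19 to 0.53). Proz, which encodes protein Z, had 309 and 298 RPM, a ratio of -0.05 (-0.10 to -0.01). The 7 vitamin K-dependent genes F2, F7, F9, F10, Proc, Pros1 and Proz summed to 3337 RPM for MHs and 3299 for SHs. Of the 7, only Pros1 was called lower, where 11% of all genes with at least 10 reads were. The genes of the vitamin K cycle and of factor export also differed little. Ggcx, which encodes the carboxylase, had 94.7 and 90.6 RPM, Vkorc1, which encodes the reductase, 26.7 and 23.8, and Lman1, a cargo receptor for factor V, 286.6 and 286.6. Of these 5 genes, with Vkorc1l1 and Mcfd2, none was called in either direction. Among all genes with at least 10 reads, 11% were called lower and 9.57% higher, so few calls would be expected in lists this short.

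In fibrinolysis, plasminogen differed by under 3 percent and its brake by more. Plg, which encodes plasminogen, had 44173 reads for MHs and 107272 for SHs, 2602 and 2533 RPM, a ratio of -0.04 (-0.06 to -0.02). Cpb2 encodes carboxypeptidase B2, which trims fibrin so that it binds less plasminogen (chromosome 14, 75242287 to 75283555). It fell from 318 to 262 RPM, a ratio of -0.28 (-0.33 to -0.23), and its call was lost under 2 of 5 other scalings, where the ratio was -0.25 and -0.26. Hrg, which encodes a histidine-rich glycoprotein that binds plasminogen and heparin, had 493.6 and 445.9 RPM, a ratio of -0.15 (-0.18 to -0.11).

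**Figure D3:**
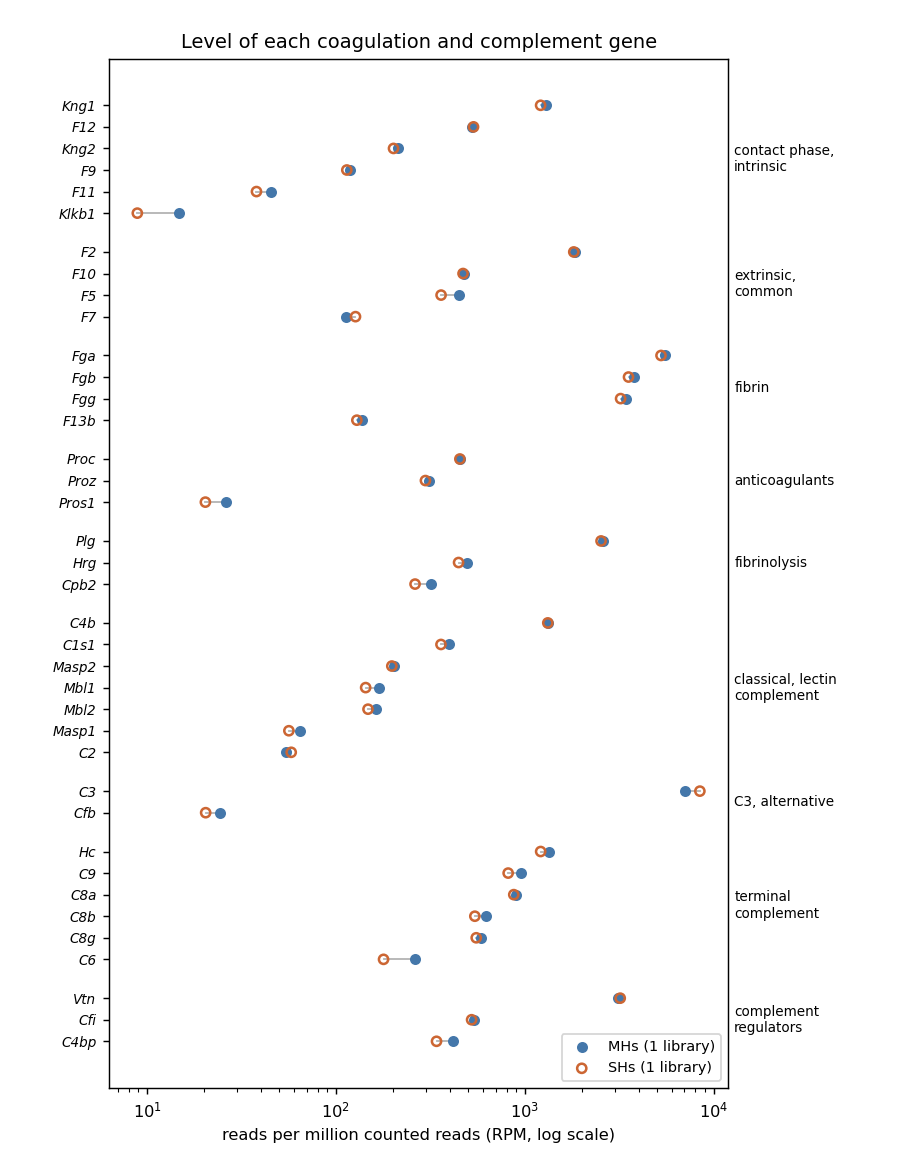
Level of each of the 38 genes in RPM (x axis, log scale), grouped by role, in the library of MHs (filled) and that of SHs (open). The symbols of most genes touch or overlap, those of Klkb1 and C6 stand clearly apart with SHs on the left, and C3 is the most abundant gene, with SHs on the right.

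C3 had the largest ratio above 0, 0.25, whereas the fibrinogen genes and Plg were below 0. C3 is the component at which all complement pathways meet (chromosome 17, 57203970 to 57228136, minus strand). It had 120358 reads for MHs and 357922 for SHs, or 7089 and 8450 RPM, with an interval of 0.24 to 0.26 around its ratio, and was just short of a call. By reads, it ranked 13 among all genes of the MH library and 10 among those of the SH library. Its share of the reads of the 38 genes was 17.6% for MHs and 21.1% for SHs. Without C3, the summed ratio of the other 37 genes was -0.08 (-0.08 to -0.07) in place of -0.01. Cfb encodes factor B, which forms the alternative convertase with C3 and is known as an acute-phase gene. It had 413 and 865 reads, or 24.3 and 20.4 RPM, a ratio of -0.25 (-0.42 to -0.08), on the other side of 0 from C3. The ratio of C3 lay 0.51 above that of Cfb (0.34 to 0.68). Cfb shares exon positions with another gene, which is described with C2 below.

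The classical and lectin pathway genes were between -0.24 and 0.10, and 0 of 7 were called. Among all genes with at least 10 reads, 11% were called lower and 9.57% higher, so 7 genes would give few calls. C1s1, which encodes a protease of the C1 complex, had 396.9 RPM for MHs and 359.8 for SHs, a ratio of -0.14 (-0.18 to -0.10). Its near copy C1s2 had only 226 and 461 reads. C4b, which encodes C4, had 22577 and 56048 reads, 1330 and 1323 RPM, with an interval that included 0. Its near copy C4a had 127 and 104 RPM and was called lower, at -0.30, but reads of this pair are uncertain. Their sum had a ratio of -0.03 (-0.05 to -0.01). C2, the partner of C4, had 54.1 and 58.0 RPM, and its interval of -0.01 to 0.21 included 0. C2 and Cfb lie 0.086 kb apart, and the ratio of C2 lay 0.35 above that of Cfb (0.15 to 0.55). Both share exon positions with Gm20547, a gene on the same strand that had 0 reads in both libraries. How reads at these positions were assigned is not known here.

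The mannose-binding lectins recognise sugars on microbes. Mbl1 had 2885 reads for MHs and 6083 for SHs, a ratio of -0.24 (-0.31 to -0.18), and Mbl2 had 2777 and 6260, a ratio of -0.15 (-0.21 to -0.08). The difference between them, -0.10 (-0.19 to -0.01), was small. Masp1 and Masp2 encode the proteases bound to these lectins. Masp1 had 64.4 and 56.3 RPM, a ratio of -0.19 (-0.30 to -0.09), and Masp2 had 202 and 198 RPM, with an interval that included 0. Masp1 also encodes other products by splicing, which counts per gene do not separate. Masp2 shares exon positions with Tardbp on the other strand, and whether the counting used strand is not given in the sources used here.

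Of the terminal components, C6 was called lower. All 6 had intervals under 0, and all 6 had at least 10000 reads, where 43.0% of all genes had such an interval. Their sum was 4659 RPM for MHs and 4178 for SHs, a ratio of -0.16 (-0.17 to -0.15). Hc, which encodes C5, had 22714 reads for MHs and 51375 for SHs, a ratio of -0.14 (-0.16 to -0.12). C6 binds activated C5 and begins the membrane pore (chromosome 15, 4727175 to 4814967, plus strand). It had 4461 and 7566 reads, or 263 and 179 RPM, a ratio of -0.56 (-0.61 to -0.50), 1.47-fold lower in SHs. C9, which forms the ring of the pore and lies on the same chromosome, had 951.6 and 816.1 RPM, a ratio of -0.22 (-0.25 to -0.19), 0.33 above that of C6. C7, which joins the pore between C6 and C8, had 0 reads for MHs and 1 for SHs, so it was not detectable in either.

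The genes of C8 did not all move alike. C8a had 15222 and 37017 reads, 896.5 and 873.9 RPM, C8b had 10635 and 23029, 626.4 and 543.7 RPM, and C8g had 9921 and 23419, 584.3 and 552.9 RPM. Their ratios were -0.04, -0.20 and -0.08, and the ratio of C8a lay 0.17 above that of its neighbour C8b (0.12 to 0.21). C8a and C8g could not be told apart at this depth (-0.0005 to 0.0864). Per kilobase of exon, C8a and C8b stood at 246.6 and 246.1 RPKM in MHs and at 240.4 and 213.6 in SHs. C8g stood at 391.4 RPKM for MHs and 370.3 for SHs.

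Of the regulators, C4bp was called lower, and Cfi and Vtn were within a few percent. C4bp encodes C4b-binding protein, a plasma inhibitor of the classical convertase (chromosome 1, 130634773 to 130661632). It fell from 418.7 to 340.8 RPM, a ratio of -0.30 (-0.34 to -0.26). In humans, protein S circulates partly bound to this protein, which these mouse counts do not address. Cfi, which encodes the factor I protease that cleaves C3b and C4b, had 536.4 and 522.6 RPM, a ratio of -0.04 (-0.07 to -0.00). Vtn, which encodes vitronectin, an inhibitor of the terminal pore, had 52600 reads for MHs and 135528 for SHs, a ratio of 0.05 (0.03 to 0.06). Per kilobase of exon, the most abundant of the 38 genes in MHs were Fga, Fgg, Vtn, C3 and Fgb. In SHs, C3 stood at 1643 RPKM and came before Vtn, at 1576, and Fgg, at 1536.

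A feature that went with the ratio was the base composition of the transcripts. The 6 genes called lower had GC contents between 39.8% and 46.6% in their longest annotated transcript, and the 5 genes with a ratio above 0 had between 52.5% and 58.5%. Spearman's rho between GC content and log2 ratio was 0.65 across the 38 genes, and 0.24 across 4903 of the genes with at least 1000 reads. These are correlations across genes of the same 2 libraries, and genes are not independent replicates. Several genes lay off this pattern. F13b (41.4%) and Fgg (42.7%) had GC contents within the range of the called genes, with ratios of -0.09 and -0.10. Proc (56.6%) and C4b (55.3%) lay within the range of the genes above 0, with ratios of -0.004 and -0.007. F9, with the lowest GC content of 39.0%, had a ratio of -0.06, and Cfb, with 52.9%, had -0.25. For the span of the gene rho was -0.31 across the 38 genes and 0.02 across the 4903 genes. For exon length these were -0.09 and 0.00, and for the level in MHs they were 0.38 and, over 5055 genes, -0.18. The part of base composition in the ratios was not tested.

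**Figure D4:**
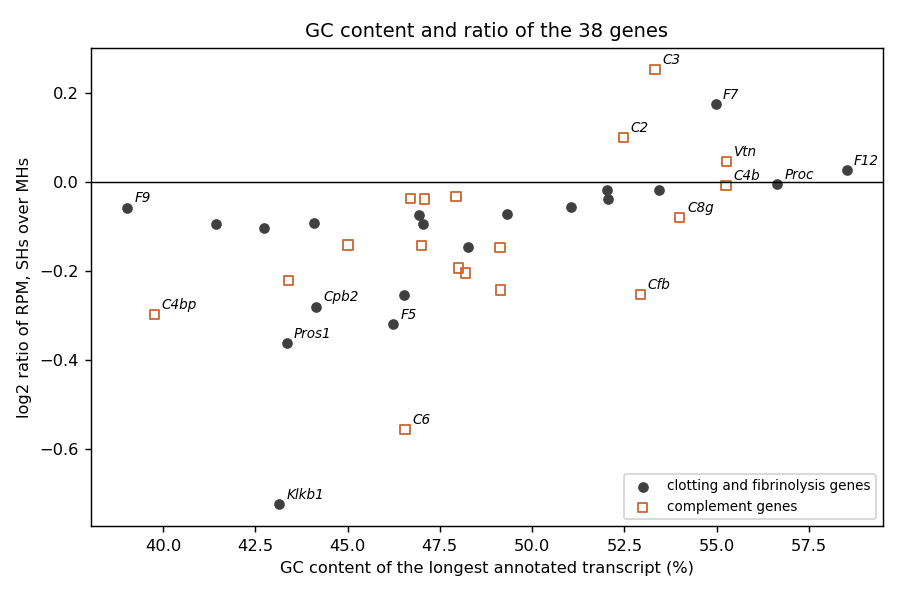
GC content of the longest annotated transcript (x axis, percent) against the log2 ratio of SHs over MHs (y axis) for each of the 38 genes, clotting and fibrinolysis genes filled and complement genes open. The 5 genes above 0 all lie at 52.5% GC or more, and the 6 genes called lower all lie at 46.6% or less.

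Other genes of the same pathways fell into those with levels like the members and those with very few reads in SHs. Of the 20 other complement genes found, 18 had at least 10 reads, 11 of these were called lower and 0 higher, beside 11% and 9.57% of all such genes, and their median was -0.34. Masp3 had no row of its own. C1ra, which encodes the other protease of C1, had 161 and 144 RPM, its near copy C1rb 16.7 and 12.9, and Clu, an inhibitor of the terminal pore, 1388 and 1460. The genes of C1q, which macrophages are known to make, had few reads in either library. C1qa had 20 reads for MHs and 1 for SHs, a log2 ratio of -5.09 (-11.01 to -3.00). C1qb had 33 and 2 reads, and C1qc had 46 and 4. The ficolin gene Fcna had 36 and 3 reads, the collectin gene Colec10 had 42 and 9, and Cd55, which encodes a membrane inhibitor, had 53 and 4. Colec11, another collectin gene, had 26 reads for MHs and 0 for SHs, with -4.03 as the upper end of its 95% interval on the log2 scale. Cfp, which encodes properdin, had 31 and 34 reads, a ratio of -1.19.

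Clotting genes that liver endothelial cells are known to express had few reads too. F8, which encodes factor VIII, had 105 reads for MHs and 46 for SHs, or 6.18 and 1.09 RPM, a ratio of -2.50 (-3.042 to -1.996). Vwf, which encodes von Willebrand factor, had 30 and 5 reads, Tfpi, which encodes an inhibitor of tissue factor, had 18 and 1, and Thbd, which encodes thrombomodulin, had 17 and 1. Tissue factor itself, F3, had 40 and 95 reads, and its interval of -0.62 to 0.50 included 0. Of the 12 genes of this list, 5 had at least 10 reads and 4 of these were called lower, beside 11% of all such genes. Plat, Plau and Clec3b had 0 reads in both libraries. Procr had 3 reads for MHs and 0 for SHs, and F13a1, Thbs1 and Plaur had 0 reads in MHs. The endothelial and macrophage marker lists were lower in the same SH library, from 80.9 to 4.49 RPM and from 18.3 to 1.04 RPM, and C1qa, C1qb, C1qc and Vwf are themselves on these lists. Fewer cells of a type and less RNA per cell cannot be told apart in such samples.

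**Figure D5:**
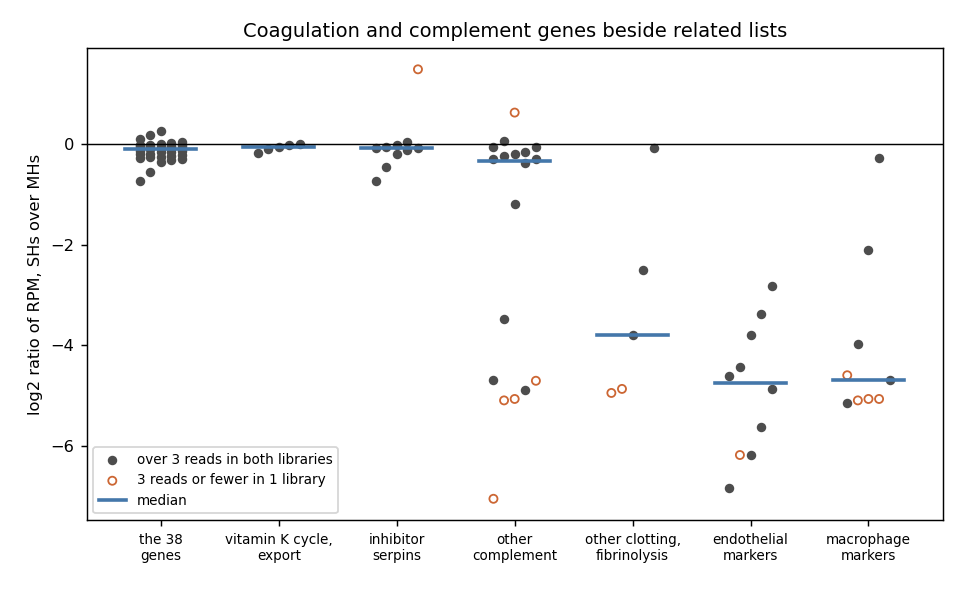
Log2 ratio of SHs over MHs (y axis) for the 38 genes and for the genes with at least 10 reads in 6 related lists (x axis), with the median of each list as a line. The 38 genes lie between -0.73 and 0.25, whereas most endothelial and macrophage markers lie below -2, and open symbols have 3 reads or fewer in 1 library, so that their position depends on the 0.5 added reads.

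Among serpin genes that inhibit these proteases, Serpina10, the partner of protein Z, was called lower, at -0.45 (-0.52 to -0.38). Serpinc1, which encodes antithrombin, had 2130 and 2017 RPM, a ratio of -0.08. Acute-phase genes outside the 38 spread more widely. Of 15 such genes, 7 were called lower and 1 higher, beside 11% and 9.57% of all genes with at least 10 reads. Saa1, which encodes serum amyloid A, fell from 283 to 133 RPM, a ratio of -1.09 (-1.15 to -1.04), and Saa2 had a ratio of -1.13. Hp, which encodes haptoglobin, had 2997 and 2774 RPM. The gene called higher was Socs3, a feedback inhibitor of interleukin-6 signaling, with 617 reads for MHs and 4292 for SHs, a ratio of 1.48 (1.36 to 1.60). Of 12 liver transcription factor genes, 1 was called higher, Stat3 at 0.33, and 1 lower, Cebpb at -0.32. These counts are near the shares of all genes with at least 10 reads, 9.57% higher and 11% lower. Hnf4a had 633 RPM for MHs and 649 for SHs.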

How the data were processed

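Ion Proton sequencing was done on poly(A) RNA from 1 sample per cell fraction. The methods state that the authors aligned trimmed reads to mm10 in CLC Genomics Workbench, with at most 10 hits per read. The deposited values are whole read counts per gene symbol, without normalization, and the program, annotation and strand setting behind them are not given in the sources used here. From them, RPM, log2 ratios and Clopper-Pearson intervals were computed over all 43280 symbols with scipy 1.17.1, pandas 2.3.3 and numpy 2.4.6 under Python 3.11.15. Scaling alternatives used edgeR 4.0.16 and DESeq2 1.42.0 in R 4.3.3. Differences between the ratios of 2 genes have Wald intervals. Reads carried no molecular identifiers, so intervals cover counting error only. A floor of 3 reads equals 0.177 RPM for the MH library and 0.0708 for the SH library. Gene positions, exon lengths and GC contents came from GENCODE M21 of mm10. The calculation was tested on simulated counts. The members and gene lists were chosen with earlier results of these data known. All 38 members are named, with genes of the other lists that were called or were at 0, paralogs and neighbours. Others (Ggcx, Vkorc1, Lman1, F3, C1ra, Clu, Serpinc1, Hp, Hnf4a and Alb), the gene groups by GC content and the vitamin K-dependent group were chosen after their values were seen. Some genes of the other lists are not reported here.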

Additional observations from a re-analysis of the deposited data

How the results depend on the processing

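No paired analysis was possible because each group held a single library. The median of the 38 genes stayed between -0.09 and -0.06 under all alternatives run, which were 5 other scalings, 2 added reads, other read minimums, a thinned SH library, paralogs summed and C3 left out. The number called lower was 1 at 1.5-fold, 0 at 2-fold and 27 by the interval alone, and the number called higher was 3 by the interval alone. C3 became the 1 gene called higher when libraries were scaled by TMM, by totals that left out the 10 most abundant genes, or by protein-coding genes. The last 2 scalings no longer called Cpb2 lower. Under TMM, the summed ratio was -0.0027 for all 38 genes, -0.0758 for the fibrin group and 0.2617 for C3 with Cfb. With DESeq2 size factors the first 2 of these were -0.0032 and -0.0763. With the 10 most abundant genes left out of the totals, the summed ratio was 0.0192 for all 38 genes, -0.0356 for the contact and intrinsic group, -0.0216 for the extrinsic and common group, -0.0539 for fibrin, -0.0028 for the anticoagulants, -0.0435 for fibrinolysis, -0.0267 for the classical and lectin group, 0.2836 for C3 with Cfb, -0.1257 for the terminal components and 0.0351 for the regulators. With protein-coding totals, an alternative chosen after seeing the data, the same ratios were 0.0108 for all 38 genes, -0.044 for contact and intrinsic, -0.03 for extrinsic and common, -0.0623 for fibrin, -0.0518 for fibrinolysis, -0.0351 for classical and lectin, 0.2752 for C3 with Cfb, -0.1341 for terminal and 0.0267 for regulators. With C3 left out, also chosen after seeing the data, the summed ratio was -0.0759. A scaling moves every gene by the same amount, here from -0.0005 to 0.0315. At most 12 of the 38 genes moved past their own interval under any alternative, and none of the called genes changed sign. Depth limits Klkb1, F11, Pros1, C2 and Cfb most, which had under 1000 reads in the MH library.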
